A study of Mus musculus with 4 samples.

Results

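BMP signals, their antagonists and the Id genes were followed here as a set of 9 mouse genes: the ligands Bmp2 and Bmp4, the secreted antagonists Nog and Grem1, the pseudoreceptor Bambi, and Id1, Id2, Id3 and Id4. They were taken by symbol from a table of 27304 entries, and all 9 had an entry. The cells were C57BL/6 mouse embryonic fibroblasts on day 5 of reprogramming. All had been infected with SeVdp(KOSMaB), a Sendai vector for Klf4, Oct4, Sox2 and c-Myc, and all had been selected with 2 µg/mL blasticidin S. The 4 groups were cells expressing Osr2, a zinc-finger transcription factor, with 10 µM SB431542, Osr2 cells without it, control cells expressing the fluorescent protein Kusabira Orange with 10 µM SB431542, and control cells without it. Each group has 1 library, so no difference between groups has a replicate check, no test was possible, and the groups are compared by size. How the transgenes were delivered is not given in the sources used here.

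Bone morphogenetic proteins are secreted ligands of the TGF-β superfamily that bind type I and type II receptor kinases, which phosphorylate Smad1, Smad5 and Smad9. With Smad4, these enter the nucleus and activate genes among which the Id genes are the best known. Id proteins hold a helix-loop-helix domain without a DNA-binding region and block the E proteins with which they pair. In mouse pluripotent cells BMP signals and Id genes restrain differentiation, and in fibroblasts they favour the early epithelial transition of reprogramming. SB431542 inhibits the type I receptors of TGF-β, activin and nodal, and is known to spare those of the BMPs.

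The 250 bases before the RefSeq start (GRCm38.p6) are shown for Bmp4, Grem1 and Id4. These 3 genes were higher in Osr2 than in control cells without SB431542 in relative TPM, which is defined below. Their windows also lie outside the annotated exons of the gene. For Grem1 the log2 difference was smaller on the other scales, at 0.55 on deposited TPM and 0.85 after read subtraction. Capitals mark GGCGCC, a core of GC-rich BMP response elements, and CAGAC on either strand, the core of a Smad box.
Bmp4, chr14:46390670-46390919, minus strand: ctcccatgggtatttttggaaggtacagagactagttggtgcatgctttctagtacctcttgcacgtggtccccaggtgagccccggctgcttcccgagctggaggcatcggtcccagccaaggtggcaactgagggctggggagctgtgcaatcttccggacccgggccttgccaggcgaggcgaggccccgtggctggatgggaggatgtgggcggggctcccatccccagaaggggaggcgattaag
Grem1, chr2:113758649-113758898, minus strand: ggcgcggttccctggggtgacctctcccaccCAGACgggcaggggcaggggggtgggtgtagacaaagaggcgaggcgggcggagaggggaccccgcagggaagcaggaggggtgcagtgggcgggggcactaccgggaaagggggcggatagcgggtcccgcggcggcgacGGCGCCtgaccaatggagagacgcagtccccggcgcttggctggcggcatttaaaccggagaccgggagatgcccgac
Id4, chr13:48260866-48261115, plus strand: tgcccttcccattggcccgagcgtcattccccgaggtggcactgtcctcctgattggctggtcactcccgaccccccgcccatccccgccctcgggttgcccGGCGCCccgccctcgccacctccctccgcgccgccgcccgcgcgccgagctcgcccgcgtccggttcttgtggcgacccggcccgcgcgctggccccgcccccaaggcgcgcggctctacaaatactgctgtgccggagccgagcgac
GGCGCC began 78 bases before the start of Grem1 and 148 bases before that of Id4, and CAGAC began 219 bases before that of Grem1. Neither motif was in the Bmp4 window. In the windows of the remaining genes with an entry, Id2 held GGCGCC once and Id3 held CAGAC at 2 places, 167 and 68 bases before its start, the nearer on the opposite strand. GGCGCC is in 9.59% and CAGAC in 42.2% of all 32851 such windows, so these matches describe the letters only. Entries were found for 5 of the 9 genes, and Bmp2, Nog, Bambi and Id1 are named without a sequence.

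The values are TPM as the authors deposited them, which are already per length of each gene. The listed entries summed to 96038 TPM in Osr2 cells with SB431542, 270168 in Osr2 cells without it, 452145 in control cells with it and 345864 in control cells without it, so differences on deposited TPM include these unequal totals. Whole reads were recovered from them, and for all 9 genes the length that gave whole reads equalled the union of exons in GENCODE M21. The libraries held 1652503 reads in Osr2 cells with SB431542, 14438414 in Osr2 cells without it, 13360822 in control cells with it and 18284762 in control cells without it. In log2 the median gene of Osr2 cells differed from that of control cells by −0.80 without SB431542 and by −3.51 with it, and for SB431542 against none it differed by −2.25 in Osr2 cells and by 0.46 in control cells. Relative TPM sets the median gene of each library level with that of control cells without SB431542, and a difference is one of log2(relative TPM + 1) unless another scale is named. Measured genes are those that reached 1 TPM in some library, 13509 in all, with all 9 genes of the set among them. A gene is called higher or lower where its difference is 1 or more in size. In Osr2 and in control cells alike, the untreated column was at or above the treated one in reads for every entry, and how the columns were made beyond the design text is not given in the sources used here. The treated column held 11.4% of the untreated reads in Osr2 cells and 73.1% in control cells. Values are thus also given after read subtraction, which removes from the untreated column the reads of the treated one. A gene with equal reads in both columns would differ by a log2 ratio of 3.42 in Osr2 cells and 0.41 in control cells, which are the highest values that SB431542 against none could reach, so that 0.0% of genes could count as higher in control cells.

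The Osr2 library with SB431542 had more genes at 0 reads than counting error gives. Of 7728 genes expected at 20 or more reads from their level in control cells with SB431542, 70 had 0 reads there, against 2.92e-07 by counting error, so counting error sets no limit for genes at 0 reads in this library. Osr2 matched the labels, at 13.7 TPM in Osr2 cells with SB431542, 59.1 TPM in Osr2 cells without it, 0.764 TPM in control cells with it and 0.890 TPM in control cells without it. The summed relative TPM of 10 fibroblast markers was 3357 and 13785 in Osr2 cells with and without SB431542, against 461 and 1002 in control cells with and without it, and the 1 zero was Lum in the first of these libraries. For 9 pluripotency markers it was 92.9 and 10.7 in Osr2 cells with and without SB431542, against 94.4 and 93.9 in control cells with and without it, with Nanog, Esrrb, Zfp42 and Dppa5a at 0 reads in Osr2 cells with SB431542, Esrrb, Zfp42 and Dppa5a in Osr2 cells without it, and Dppa5a in control cells with it. For 7 macrophage markers, all with reads in each library, it was 122 and 111 in Osr2 cells with and without SB431542, against 19.7 and 19.5 in control cells with and without it. For 4 endothelial markers it was 3.68 and 8.84 in Osr2 cells with and without SB431542, against 10.5 and 9.26 in control cells with and without it, with Cdh5 at 0 in all libraries and Pecam1 in the first. For 5 epithelial markers it was 14.6 and 4.73 in Osr2 cells with and without SB431542, against 17.1 and 18.8 in control cells with and without it, with Epcam and Krt18 at 0 in the first. On this scale the fibroblast and macrophage sums were higher in both Osr2 libraries, as was the relative TPM of Nog, Grem1, Bambi, Id1, Id3 and Id4, and the part of the cell make-up in the results was not tested. The deposited TPM of the fibroblast markers summed to 405 and 7922 in Osr2 cells with and without SB431542, against 635 and 1002 in control cells with and without it, and that of the macrophage markers to 14.7 and 63.6 in Osr2 cells, against 27.1 and 19.5 in control cells, so that there the Osr2 library with SB431542 was the lowest. In bulk RNA, fewer cells of a type and less RNA per cell cannot be told apart.

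Bmp4, a ligand, was the gene of the set that differed most between Osr2 and control cells without SB431542. Bmp4 (chromosome 14, 46383520 to 46390669, minus strand) had 0 TPM (0 reads) in Osr2 cells with SB431542, 6.82 TPM (215 reads) in Osr2 cells without it, 0.336 TPM (6 reads) in control cells with it and 0.671 TPM (22 reads) in control cells without it. It was thus high in 1 library only. Without SB431542 it was 17.7-fold higher in Osr2 than in control cells relative to the median gene (95% counting interval 11.4 to 28.8), a log2 difference of 2.94. It was 2.23 on deposited TPM and 2.15 after read subtraction. In Osr2 cells the log2 difference of SB431542 against none was −3.69, and at its untreated level Bmp4 would have had 20.1 reads in the treated library. With SB431542, the comparison of Osr2 with control cells rests on 0 against 6 reads. At the control level 0.414 reads would be expected, so a lower level was not detectable at this depth. A higher level could be seen from such a start, as Nog was expected at 0.966 reads and had 57. In control cells SB431542 against none gave −0.43, on 6 against 22 reads, and −1.15 after read subtraction, where it was 7.83-fold lower (2.91 to 24.4). Counting intervals, here and below, cover counting error only. Exons of Gm15217 on the opposite strand share 89 bases with Bmp4, and whether reads were counted by strand is not given in the sources used here.

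Bmp2 (chromosome 2, 133552159 to 133562885), the other ligand, was low in all libraries, at 0.225 TPM (5 reads) in Osr2 cells with SB431542, 0.642 TPM (32 reads) in Osr2 cells without it, 1.42 TPM (40 reads) in control cells with it and 1.10 TPM (57 reads) in control cells without it. Its log2 differences were 0.011 and 0.50 for Osr2 against control without and with SB431542. The folds of 1.02 (0.637 to 1.59) and 1.81 (0.558 to 4.59) both have intervals that include 1. On deposited TPM the differences had the opposite sign, at −0.36 and −0.98. SB431542 against none gave 0.44 in Osr2 cells, or −0.42 as deposited, and −0.050 in control cells, or 0.20 as deposited. The ratio of Bmp4 to Bmp2 within a library, which needs no scaling, was 10.6 in Osr2 cells without SB431542 (7.31 to 15.9), against 0.610 in control cells without it (0.355 to 1.01). With the treated reads subtracted the ratio was 12.6 in Osr2 (8.42 to 19.6) and 1.49 in control cells (0.704 to 3.13).

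Of the antagonists, Nog stood out where SB431542 was present. Nog (chromosome 11, 89300638 to 89302332) encodes noggin, which binds BMP ligands and keeps them from their receptors. It stood at 5.37 TPM (57 reads) in Osr2 cells with SB431542, 4.92 TPM (117 reads) in Osr2 cells without it, 1.04 TPM (14 reads) in control cells with it and 1.62 TPM (40 reads) in control cells without it. Both Osr2 libraries were above both control libraries, also on TPM as deposited. With SB431542, Nog was 59.0-fold higher in Osr2 than in control cells (32.5 to 115) and its log2 difference was 4.70, above that of 99.8% of measured genes. As deposited, in TPM, this difference was 1.64, a scale on which 0.348% of measured genes, 47 in all, were higher by at least 1. In Osr2 cells the treated library held 57 of the 117 untreated Nog reads, or 48.7% (exact 95% interval 39.4 to 58.1), against 11.4% of all reads. The log2 difference of SB431542 against none was 2.25 there, and 2.95 after read subtraction, where the fold was 9.36 (6.40 to 13.7). In control cells the log2 difference was −0.58, and −1.48 after subtraction. Without SB431542 Nog was 5.29-fold higher in Osr2 cells (3.67 to 7.78), a log2 difference of 1.87, but after read subtraction, which leaves 60 reads in Osr2 and 26 in control cells, of 0.12.

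Grem1 (chromosome 2, 113746164 to 113758646), which encodes gremlin, another secreted antagonist of BMP ligands, stood at 2.20 TPM (57 reads) in Osr2 cells with SB431542, 11.3 TPM (659 reads) in Osr2 cells without it, 9.01 TPM (297 reads) in control cells with it and 7.44 TPM (450 reads) in control cells without it. As deposited, the Osr2 library with SB431542 was the lowest and the other Osr2 library the highest, while in relative TPM both Osr2 libraries, at 18.2 and 19.7, were above the control libraries, at 6.54 and 7.44. The folds of Osr2 over control were 2.65 without SB431542 (2.35 to 2.99) and 2.78 with it (2.06 to 3.70). The log2 differences were 1.29 and 1.35. Without scaling they were 0.55 and −1.65, and after read subtraction 0.85 and 1.27. SB431542 against none gave −0.11 in Osr2 and −0.16 in control cells. Nog over Grem1 was 2.45 in Osr2 cells with SB431542 (1.67 to 3.597), 0.434 in Osr2 cells without it (0.354 to 0.530), 0.115 in control cells with it (0.0623 to 0.197) and 0.218 in control cells without it (0.153 to 0.301). After read subtraction the ratio without SB431542 was 0.244 in Osr2 (0.184 to 0.318) and 0.416 in control cells (0.263 to 0.633), which turns the order of these libraries. The antagonist with the higher level in the deposited columns was noggin in the first of these libraries and gremlin in the other 3.

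Bambi (chromosome 18, 3507923 to 3516404) encodes a transmembrane protein that resembles the type I receptors but lacks their kinase domain. It stood at 1.35 TPM (43 reads) in Osr2 cells with SB431542, 2.33 TPM (166 reads) in Osr2 cells without it, 2.704 TPM (109 reads) in control cells with it and 3.28 TPM (243 reads) in control cells without it. In relative TPM the first of these libraries was highest, at 11.2, against 4.06 in Osr2 cells without SB431542 and 1.96 and 3.28 in control cells with and without it. With SB431542 Bambi was 5.72-fold higher in Osr2 cells (3.92 to 8.21), and the log2 difference of 2.04 was −0.65 on TPM as deposited. Without SB431542 the fold was 1.24 (1.01 to 1.51) and the log2 difference 0.24, against −0.36 as deposited and −0.95 after read subtraction. SB431542 against none gave 1.27 in Osr2 cells, but −0.50 as deposited, and −0.53 in control cells, or −1.41 after read subtraction.

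**Figure D1:**
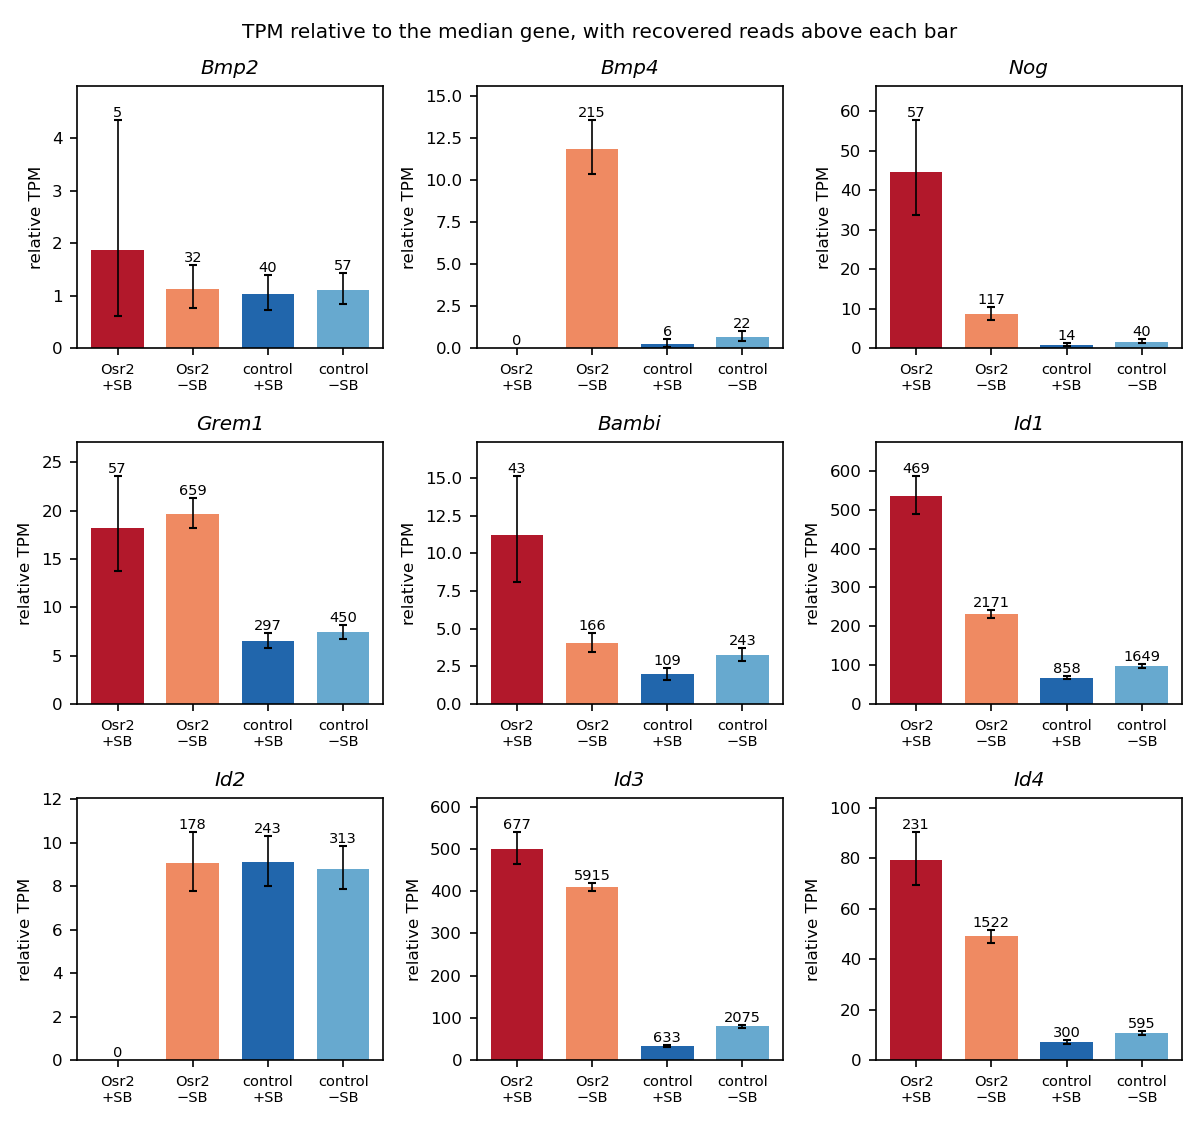
Relative TPM of each gene (y axis, linear from 0, a scale of its own in each panel) in the 4 libraries, with +SB and −SB for cells with and without SB431542. Bars are single libraries, lines are 95% counting intervals without the error of the scaling, and the numbers are recovered reads; Bmp4 and Id2 have 0 reads in Osr2 cells with SB431542, where Nog reaches its highest level.

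Id1 and Id3 were the most abundant genes of the set. In relative TPM 3 of the 4 Id genes, Id1, Id3 and Id4, were higher in Osr2 cells at either setting of SB431542. Of all measured genes 16.6% were higher without SB431542 and 19.9% with it. On deposited TPM 2 of the 4, Id3 and Id4, were higher by 1 or more without SB431542 and 0 with it (7.78% and 0.348% of measured genes). After read subtraction only Id4 was higher without SB431542, where 17.4% of measured genes were. Id3 (chromosome 4, 136143497 to 136145755) stood at 60.4 TPM (677 reads) in Osr2 cells with SB431542, 235 TPM (5915 reads) in Osr2 cells without it, 44.5 TPM (633 reads) in control cells with it and 79.5 TPM (2075 reads) in control cells without it. At either setting of SB431542 the Osr2 library was the higher, also on TPM as deposited. The folds were 5.16 without SB431542 (4.90 to 5.42) and 15.5 with it (13.9 to 17.3), and the log2 differences 2.35 and 3.91. Without scaling these were 1.55 and 0.43, and with read subtraction 0.80 and 3.85.

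In control cells Id3 had the largest log2 difference of the set for SB431542 against none. Its log2 difference was −1.27, and 0.326% of measured genes were lower. As deposited it was −0.82. The treated column held 633 of 2075 Id3 reads, or 30.5% (28.5 to 32.5), against 73.1% of all reads. After read subtraction Id3 was 6.69-fold lower with SB431542 (6.09 to 7.35), with a log2 difference of −2.6997. The fold of Bmp4 was larger there, at 7.83 (2.91 to 24.4), but on 6 reads with SB431542. In Osr2 cells the treated column held 677 of 5915 Id3 reads, which at 11.4% (10.6 to 12.3) is also the share of all reads, and the log2 difference was 0.29, or −1.94 as deposited.

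Id1 (chromosome 2, 152736251 to 152737410) stood at 64.6 TPM (469 reads) in Osr2 cells with SB431542, 133 TPM (2171 reads) in Osr2 cells without it, 93.1 TPM (858 reads) in control cells with it and 97.5 TPM (1649 reads) in control cells without it. The Osr2 library without SB431542 was the highest and the one with it the lowest as deposited, while in relative TPM both Osr2 libraries, at 535 and 232, were above the control libraries, at 67.6 and 97.5. Osr2 over control was 2.38-fold without SB431542 (2.23 to 2.54) and 7.92-fold with it (7.06 to 8.88), or 1.24 and 2.97 in log2. Without scaling these were 0.45 and −0.52, and after read subtraction 0.046 and 2.90. SB431542 against none differed by 1.202 in Osr2 cells, with −1.03 as deposited, and by −0.52 in control cells, with −1.42 after read subtraction.

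Id4 (chromosome 13, 48261228 to 48266026) stood at 9.59 TPM (231 reads) in Osr2 cells with SB431542, 28.2 TPM (1522 reads) in Osr2 cells without it, 9.81 TPM (300 reads) in control cells with it and 10.6 TPM (595 reads) in control cells without it. As deposited 3 libraries were close and the Osr2 library without SB431542 was above them. Osr2 over control was 4.63-fold without SB431542 (4.205 to 5.09) and 11.2-fold with it (9.36 to 13.3). The log2 differences were 2.11 and 3.31, or 1.33 and −0.029 on deposited TPM, and 1.03 and 3.23 after read subtraction. SB431542 against none gave 0.69 in Osr2 cells, but −1.46 as deposited, and −0.51 in control cells, or −1.39 after read subtraction. Exons of A330033J07Rik and Gm49291 on the opposite strand share 82 and 171 bases with Id4.

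Id2 (chromosome 12, 25093799 to 25097140) had a pattern unlike the other Id genes. It had 0 TPM (0 reads) in Osr2 cells with SB431542, 5.20 TPM (178 reads) in Osr2 cells without it, 12.5 TPM (243 reads) in control cells with it and 8.80 TPM (313 reads) in control cells without it. In relative TPM the last 3 libraries were close, at 9.06 in Osr2 cells without SB431542 and 9.11 and 8.80 in control cells with and without it. Without SB431542 the fold of Osr2 over control was 1.03 (0.851 to 1.24), with a log2 difference of 0.036, or −0.66 as deposited. In the Osr2 library with SB431542, 16.8 reads would be expected from the level in control cells with it and 16.7 from that in Osr2 cells without it. The log2 differences were −3.34 for Osr2 against control and −3.33 for SB431542 against none, and 1.43% and 2.36% of measured genes lay below it in these comparisons. Why it had no reads there was not tested.

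**Figure D2:**
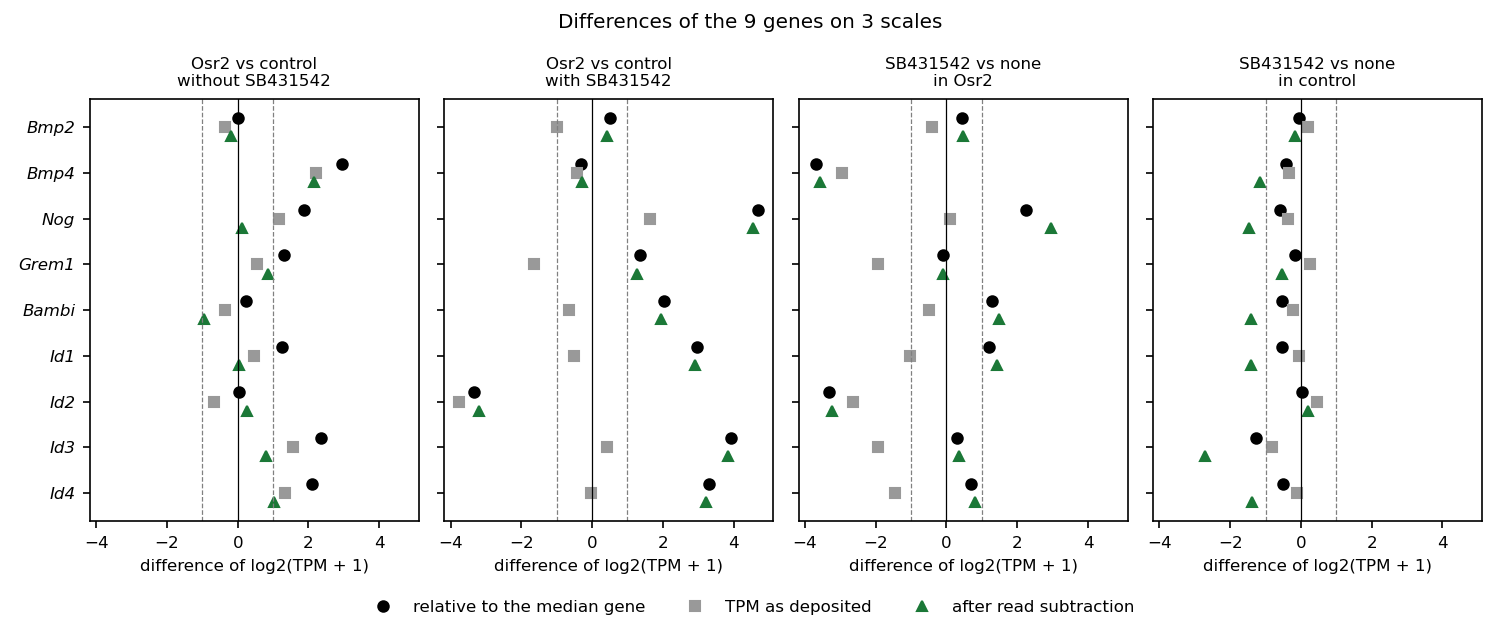
Difference of log2(TPM + 1) for each gene (rows) in the 4 comparisons (panels), on 3 scales. Dashed lines mark differences of 1 in size. Bmp4 and Id4 lie above them on all 3 scales for Osr2 against control without SB431542. For the same contrast with it, Nog lies above them on all 3 scales, and Id2, with 0 reads in Osr2 cells, below.

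Ratios between Id genes within a library do not depend on the scaling. Id3 over Id1 was 0.935 in Osr2 cells with SB431542 (0.830 to 1.05), 1.76 in Osr2 cells without it (1.68 to 1.85), 0.478 in control cells with it (0.431 to 0.530) and 0.815 in control cells without it (0.764 to 0.870). In the deposited columns Id3 was therefore above Id1 in 1 library, below it in both control libraries, and within counting error of it in Osr2 cells with SB431542. At each setting of SB431542 the ratio was higher in Osr2 cells, and in each kind of cell it was lower with SB431542. With the treated reads subtracted it was 1.99 in Osr2 (1.89 to 2.11) and 1.18 in control cells (1.08 to 1.29) without SB431542. This turns the order of Id3 and Id1 in control cells without SB431542. Id4 over Id1 was 0.148 and 0.211 in Osr2 cells with and without SB431542, against 0.105 and 0.109 in control cells with and without it. The intervals of both Osr2 libraries, 0.126 to 0.174 and 0.198 to 0.226, lay above those of the control libraries, 0.0921 to 0.120 and 0.0988 to 0.120. Id2 over Id1 was 0.0390 in Osr2 cells without SB431542 (0.0333 to 0.0455), against 0.0903 in control cells without it (0.0798 to 0.102), but 0.0498 in Osr2 and 0.0421 in control cells after read subtraction, with overlapping intervals. Together the 4 Id genes summed to 1115 and 699.8 relative TPM in Osr2 cells with and without SB431542, against 116 and 196 in control cells with and without it. The deposited TPM summed to 135 and 402 in Osr2 cells with and without SB431542, against 159.9 and 196 in control cells with and without it.

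**Figure D3:**
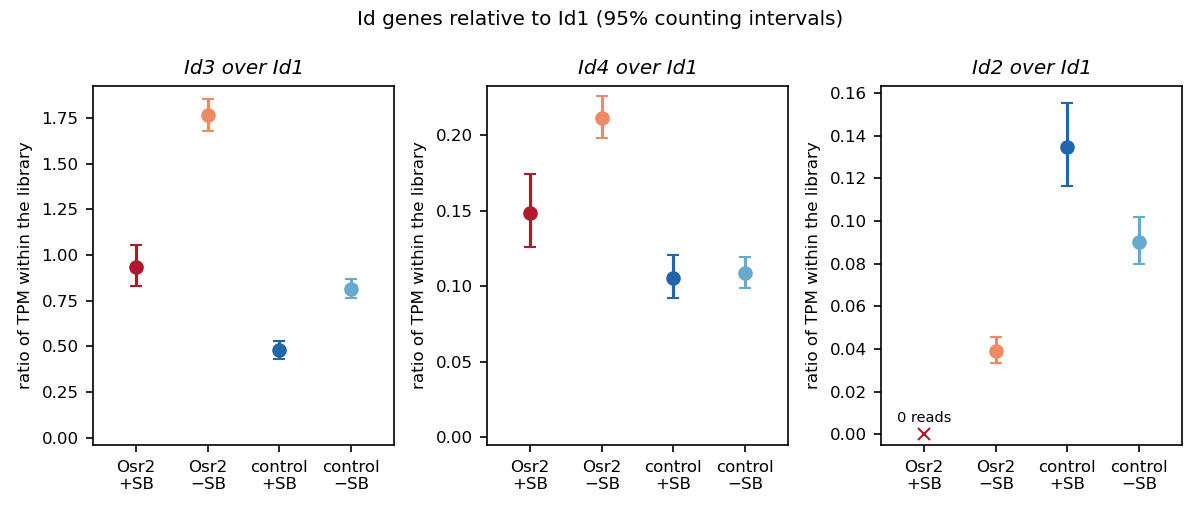
Ratio of Id3, Id4 and Id2 TPM to Id1 TPM within each of the 4 libraries (y axis, linear), with 95% counting intervals. Id3 over Id1 ranges between 0.478 in control cells with SB431542 and 1.76 in Osr2 cells without it, and the cross marks the library in which Id2 had 0 reads.

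Counted by size, Osr2 cells without SB431542 had 6 of the 9 genes higher than control cells and 0 lower, where 16.6% of measured genes were higher and 11.4% lower. The 6 were Bmp4, Nog, Grem1, Id1, Id3 and Id4, and the median of the 9 was 1.29, against −0.021 for all measured genes. As deposited, 4 were higher (7.78% of measured genes) and 0 lower (30.6%). After read subtraction 2 were higher, Bmp4 and Id4, and 0 lower, where 17.4% and 12.0% of measured genes were. With SB431542, 6 were higher in Osr2 than in control cells, Nog, Grem1, Bambi, Id1, Id3 and Id4, and 1 lower, Id2, where 19.9% of measured genes were higher and 27.9% lower. The median was 2.04, against −0.21, but −0.52 on TPM as deposited, where the median of all measured genes was −2.34. On that scale 1 was higher (0.348% of measured genes) and 2 were lower (88.1%). After read subtraction 6 were higher (18.7%) and 1 was lower (27.5%). For SB431542 against none in Osr2 cells 3 were higher, Nog, Bambi and Id1, and 2 lower, Bmp4 and Id2, where 16.5% were higher and 26.7% lower. As deposited, 0 were higher (0.118%) and 6 lower (64.1%), and after read subtraction 3 were higher (18.9%) and 2 lower (26.8%). In control cells 0 were higher (0.0%) and 1 was lower, Id3, where 0.577% were lower. Of the other 8, 7 also had differences below 0, and the median of the 9 was −0.51, against 0.019. As deposited, 0 of the 9 were lower (0.341% of measured genes). After read subtraction 6 of the 9 were lower with SB431542 in control cells, Bmp4, Nog, Bambi, Id1, Id3 and Id4, and 0 higher, where 6.38% of measured genes were lower and 9.99% higher. The comparisons share libraries in pairs, so their counts are not independent.

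Within a library the order of levels was alike at the top. Id1 and Id3 held the highest levels in all 4 libraries and lay above 99.2% and 99.1% of measured genes in Osr2 cells with SB431542, 98.2% and 99.2% in Osr2 cells without it, 94.0% and 84.5% in control cells with it, and 96.2% and 94.996% in control cells without it. Their counting intervals overlapped only in the first of these. In control cells without SB431542, Id4 and Id2 had overlapping intervals, as had Id2 and Grem1, Nog and Bmp2, and Bmp2 and Bmp4. The 2 ligands were the lowest of the set in that library, and in Osr2 cells without SB431542 Bmp4 took the fifth place above Id2, Nog, Bambi and Bmp2, with an interval that overlapped that of Id2.

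The other genes of the pathway give the setting. Outside the 9, the lists hold 59 genes, of which 40 were measured and 19 stayed below the filter. Osr2 cells without SB431542 had 19 of the 40 higher and 2 lower than control cells, where 16.6% and 11.4% of measured genes were, and the median was 0.85. As deposited 12 were higher, with a median of 0.18 (7.78% and −0.64 for all measured genes). Once treated reads were subtracted 13 were, with a median of 0.43 (17.4% and 0.055 for all measured genes). The type I receptor Acvrl1, best known from endothelial cells, differed by 3.32 (14.3 TPM in Osr2 against 1.59 TPM in control cells). Secreted antagonists and modulators, a list not only of antagonists, had the most genes past the size. Of 12 measured, 11 were higher, Nog and Grem1 included, with a median of 1.88. As deposited 7 were higher (7.78% of measured genes), and 6 after read subtraction (17.4%). Nbl1, a secreted antagonist of the DAN family, differed by 3.31 (101 TPM in Osr2 against 16.9 TPM in control cells), and Fst, which binds activin and some BMPs, by 3.23 (70.5 TPM in Osr2 against 12.2 TPM in control cells). Lower were Acvr2b, a type II receptor, at −2.01 (2.54 TPM in Osr2 against 20.8 TPM in control cells), and the ligand Bmp8b at −1.38.

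With SB431542, 22 of the 40 were higher in Osr2 than in control cells and 3 lower, where 19.9% and 27.9% of measured genes were, and the median was 1.18. As deposited 2 were higher and 25 lower, where 0.348% and 88.1% of measured genes were. The median was then −1.27, against −2.34 for all measured genes. The inhibitory Smads, Smad6 and Smad7, which BMP and TGF-β signals induce as feedback, differed by 4.71 (12.7 TPM in Osr2 against 4.202 TPM in control cells) and 4.53 (32.0 TPM in Osr2 against 14.5 TPM in control cells), and by 1.40 and 1.09 on TPM as deposited. The ligand Bmp6 differed by 3.90 (3.36 TPM in Osr2 against 1.29 TPM in control cells), and Fst by 4.21. Lower were the type I receptor Bmpr1a at −1.89 (0.277 TPM in Osr2 against 15.5 TPM in control cells), the signalling Smad5 at −1.34 (0.926 TPM in Osr2 against 28.9 TPM in control cells) and the secreted Fstl1 at −1.50. Of the 8 genes on the list of Smads and Smurfs, 7 were higher and Smad5 lower. On deposited TPM 2 of them were higher and 5 lower, where 0.348% and 88.1% of measured genes were.

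For SB431542 against none in Osr2 cells, 10 of the 40 were higher and 12 lower, where 16.5% and 26.7% of measured genes were, and the median was −0.014. As deposited, 0 were higher and 25 lower (median −1.58), where 0.118% and 64.1% of measured genes were (median −1.37). Smad4, the common partner of the signalling Smads, differed by 2.41 (87.9 TPM with SB431542 against 78.1 TPM without it). Acvr2b differed by 2.38, Smad7 by 1.94 and Smad1 by 1.57. As deposited the differences of Smad4, Acvr2b, Smad7 and Smad1 were 0.17, 0.28, −0.29 and −0.55. Fstl1 differed by −3.40 (7.38 TPM with SB431542 against 376 TPM without it). Bmpr1a differed by −2.50, Acvrl1 by −2.37 and Twsg1, a secreted modulator of BMP binding, by −2.20. In control cells 0 of the 40 were higher and only Fst was lower, at −1.12 (7.02 TPM with SB431542 against 12.2 TPM without it). Of all measured genes 0.0% were higher there and 0.577% lower. After read subtraction 10 of the 40 were lower there and 1 higher, where 6.38% and 9.99% of measured genes were. The median of the 40 was then −0.45, against 0.11 for all measured genes. The E proteins with which Id proteins pair, Tcf3, Tcf4 and Tcf12, were neither higher nor lower in any of the 4 comparisons in relative TPM, with medians between −0.45 and −0.012. Tcf4 was just inside the limit for SB431542 against none in Osr2 cells, at −0.996, and past it after read subtraction, at −1.02. As deposited, all 3 were lower in Osr2 cells with SB431542 than in either library it is set against. So were most measured genes, 88.1% against control cells with SB431542 and 64.1% against Osr2 cells without it.

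**Figure D4:**
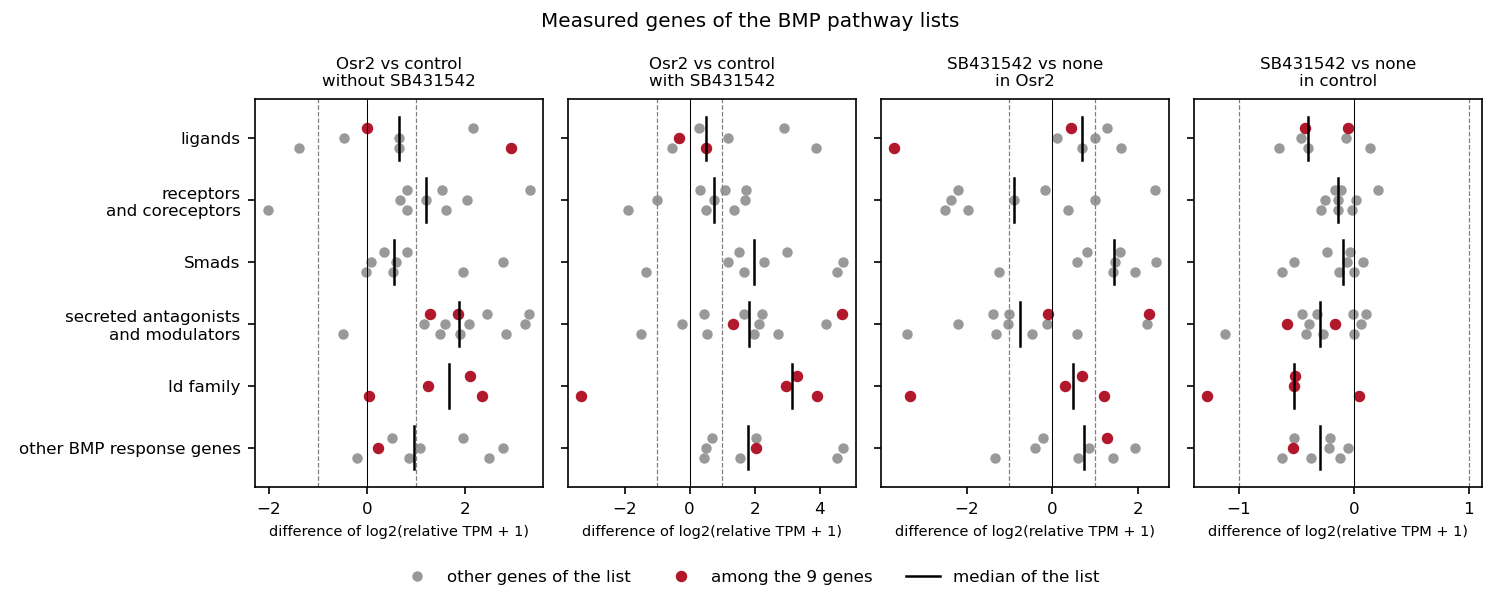
Difference of log2(relative TPM + 1) (x axis, a range of its own in each panel) for the measured genes of 6 lists in the 4 comparisons, with the 9 genes in red, other genes in grey and each list's median as a black line. Points are spread vertically only to separate them. In relative TPM 11 of 12 secreted antagonists and modulators lie above 1, and on deposited TPM 7, for Osr2 against control without SB431542.

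Likeness of pattern was measured as the Euclidean distance between log2(relative TPM + 1) values centred over the 4 libraries, so that 0 means the same pattern. Among the Id genes the distances were 0.71 for Id1 and Id4, 0.74 for Id3 and Id4, and 1.32 for Id1 and Id3, while Id2 was at 4.95 or more from each of them. Among 7868 genes whose mean TPM reached 5, the nearest to Nog were Smad7, Mir143 and Otud1, at 0.23, 0.26 and 0.32. The nearest to Id1 were Sun2, Nr2f6 and Sdc4 at 0.09, 0.09 and 0.10, those to Id3 were Ccdc102a, Dact3 and Amotl2 at 0.30, 0.37 and 0.37, and those to Id4 were Pkd2, Dse and Mxra7 at 0.12, 0.13 and 0.18. The nearest to Id2 were Apip, Eci2 and Smim20, each with 0 TPM in Osr2 cells with SB431542. With 4 libraries many genes lie close by, and these distances describe the libraries only.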

How the data were processed

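RNA was measured by poly(A) RNA sequencing in 4 libraries, 1 per group. Per the series design text, the authors mapped reads to GRCm38.p6 with STAR 2.7.3a, counted them per gene with featureCounts 2.0.0 and an Ensembl annotation named as release 75, and converted the counts to TPM. The deposited values are these TPM. A table whose 4 columns match no sample was not used.

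Left out were 26 entries with names turned into dates and 469 entries sharing 140 symbols. TPM equals reads times a constant of the library over gene length, so reads were recovered as whole numbers within 0.001. The constant came from small RNA genes. Of 18787 entries above 0, 18134 (96.5%) were whole at their GENCODE M21 length and 653 at another length. Recovery and the size rule were tested on simulated data. A gene at 0 reads could have up to 3, which is 0.208 CPM in Osr2 cells without SB431542, and 0.225 and 0.164 CPM in control cells with and without it. For Osr2 cells with SB431542 this limit was not used.

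Of 7868 genes of mean TPM of at least 5, relative TPM used the 7867 with reads in control cells without SB431542. After read subtraction TPM was rebuilt to each library's deposited sum and scaled again. Intervals on ratios of reads are exact (Clopper-Pearson, 95%) and those on TPM exact Poisson. For SB431542 against none, folds were taken against untreated reads with the treated ones subtracted. Positions are those of GENCODE M21 (GRCm38). Genes outside the 9 are named where they are among the 4 highest or lowest of the lists per comparison, with a size of at least 1, the same sign after subtraction and 20 reads, except 1 that is not reported here. The 9 genes, the lists and the 10 alternatives were chosen with earlier results of these data known. Python 3.11.15, NumPy 2.4.6, pandas 2.3.3 and SciPy 1.17.1 were used.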

Additional observations from a re-analysis of the deposited data

Results flagged for a closer look

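With 1 library per group, results are listed here where the same contrast gave differences of opposite sign in the 2 kinds of cell or at the 2 settings of SB431542, at least 1 of them of 1 or more in size. The difference between the contrasts was not tested. For SB431542 against none, Nog differed by 2.25 in Osr2 and −0.58 in control cells, Bambi by 1.27 and −0.53, Id1 by 1.202 and −0.52, Id3 by 0.29 and −1.27, and Id2 by −3.33 and 0.044. On TPM as deposited the signs were opposite for Nog (0.11 and −0.36) and Id2 (−2.63 and 0.47), and both negative for Bambi, Id1 and Id3. For Osr2 against control, Bmp4 differed by −0.31 with SB431542 and 2.94 without it, and Id2 by −3.34 and 0.036. Both of these rest on 0 reads in the Osr2 library with SB431542, which had more genes at 0 reads than counting error gives. The Id2 values of 0.044 and 0.036 are close to 0, so their sign carries no weight. Their folds were 1.18 after read subtraction (0.903 to 1.57) and 1.03 (0.851 to 1.24), with intervals that include 1.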

How the results depend on the processing

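The counts of the 9 genes stayed within 1.5 times their value with scaling on genes whose mean TPM reached 20, a pseudocount of 5, no filter, a filter of 5 TPM (7 genes left), a size of 0.58, or rows that share a symbol summed. In brackets are shares of all measured genes. For Osr2 against control with SB431542, TPM as deposited gave 1 gene higher (0.348%) and 2 lower (88.1%), and 2 were lower with a pseudocount of 0.1. For Osr2 against control without SB431542, 2 were higher after read subtraction (17.4%) and 3 at a size of 2. For SB431542 in Osr2 cells, TPM as deposited gave 0 higher (0.118%) and 6 lower (64.1%), and 1 was higher at a size of 2. For SB431542 in control cells, 0 were lower on TPM as deposited (0.341%), 6 after read subtraction (6.38%), 3 with a pseudocount of 0.1 and 0 at a size of 2. For other pseudocounts and sizes no share of all measured genes is given, so these counts cannot be set against a general shift. Among differences of 1 or more in size, the sign turned on TPM as deposited for Bambi (−0.65), Grem1 (−1.65), Id1 (−0.52) and Id4 (−0.029) in Osr2 against control with SB431542, and for Bambi (−0.50) and Id1 (−1.03) in SB431542 against none in Osr2 cells. Among smaller differences it turned in others, such as Id3 (−1.94) and Id4 (−1.46) for SB431542 against none in Osr2 cells. That scale and relative TPM differ by the shift of the median gene. Over all measured genes it gave 1051 higher and 4132 lower for Osr2 against control without SB431542, where relative TPM gave 2236 and 1540, and 47 and 11900 with SB431542, where relative TPM gave 2687 and 3768. The cause of the changes with read subtraction, pseudocount and size was not tested. The ratios between Id genes after read subtraction were added after seeing the data. No paired analysis was possible because each group has 1 library, and no library could be left out for the same reason. Depth limits the Osr2 library with SB431542 most, where Bmp2 rests on 5 reads.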
